A study of Mus musculus with 6 samples.

Results

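Small leucine-rich proteoglycans (SLRPs) were followed in cultured pancreatic stellate cells (PSCs), the matrix-producing fibroblasts of the pancreas, at extracellular pH (pHe) 6.6 or 7.4. The family was represented by 9 genes taken by name (Bgn, Dcn, Aspn, Prelp, Lum, Fmod, Ogn, Podn and Ecm2), out of 49671 genes in the deposited count table. All 9 were in the table and all 9 passed the filter on low values. The PSCs came from the pancreas of WT C57BL6/J mice, and the ages of the mice are not given in the sources used here. They grew in DMEM/Ham F12 with serum and antibiotics on plastic, and were kept for 120 h in medium at pHe6.6 or pHe7.4, with 3 biological replicates (A, B and C) for each pHe. The pH was set through the amount of sodium bicarbonate, so the proton and bicarbonate concentrations of the medium cannot be told apart. According to the methods, the cells adhered from enzymatically digested tissue, loose cells were washed away and the cultures were not passaged. No sorting step is described.

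SLRPs are secreted proteins whose core is built from leucine-rich repeats, and many of them, though not all, carry glycosaminoglycan chains. They bind fibrillar collagens and set the diameter and spacing of the fibrils, and several also hold growth factors such as TGF-β or act on cell surface receptors. Decorin and lumican are among the main SLRPs that fibroblasts make, and biglycan and other SLRPs accumulate in the fibrous stroma of the injured or cancerous pancreas.

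In the mouse, 7 of the 9 genes lie near another gene of the family. On chromosome 1 of GRCm38, Prelp (ENSMUSG00000041577, minus strand, 133910304 to 133921414) lies 2.3 kb from Optc and 115.8 kb from Fmod (ENSMUSG00000041559, plus strand, 134037254 to 134048277). On chromosome 10, Dcn (ENSMUSG00000019929, plus strand, 97479609 to 97518143) and Lum (ENSMUSG00000036446, plus strand, 97565128 to 97572703) are 47.0 kb apart, followed by Kera and Epyc. On chromosome 13, Ecm2 (ENSMUSG00000043631, plus strand, 49504810 to 49532789), Aspn (ENSMUSG00000021388, plus strand, 49544443 to 49567565), Omd and Ogn (ENSMUSG00000021390, plus strand, 49608046 to 49624501) follow each other with gaps of 11.7, 14.9 and 15.2 kb. Bgn (ENSMUSG00000031375, plus strand, 73483602 to 73495933) is on chromosome X and Podn (ENSMUSG00000028600, minus strand, 108014791 to 108096445) on chromosome 4.

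The promoters of Prelp and Fmod and of Ogn and Aspn are shown because the genes of each pair share a cluster in the genome and have unlike log2 fold changes, as given further on. Each sequence is the 250 bases before the RefSeq start site on GRCm38.p6, written 5′ to 3′ on the strand of the gene. Capitals mark matches, on either strand, to the motifs searched: the TATA element TATAAA, the CCAAT box, the GC element GGGCGG, the AP-1 site TGANTCA, the TEAD site GGAATG, a pair of GAAA half-sites with 2 bases between them (IRF) and the SMAD palindrome GTCTAGAC.
Prelp, chr1:133921402-133921651, minus strand: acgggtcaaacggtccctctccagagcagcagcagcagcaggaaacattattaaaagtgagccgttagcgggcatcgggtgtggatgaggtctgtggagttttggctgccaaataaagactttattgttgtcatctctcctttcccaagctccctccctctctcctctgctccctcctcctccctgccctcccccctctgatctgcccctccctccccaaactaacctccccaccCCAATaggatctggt
Fmod, chr1:134037004-134037253, plus strand: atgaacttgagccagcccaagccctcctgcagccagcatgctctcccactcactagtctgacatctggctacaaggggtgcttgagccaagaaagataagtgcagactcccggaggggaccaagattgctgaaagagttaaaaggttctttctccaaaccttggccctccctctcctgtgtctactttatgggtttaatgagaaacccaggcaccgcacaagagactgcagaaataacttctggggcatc
Ogn, chr13:49607765-49608014, plus strand: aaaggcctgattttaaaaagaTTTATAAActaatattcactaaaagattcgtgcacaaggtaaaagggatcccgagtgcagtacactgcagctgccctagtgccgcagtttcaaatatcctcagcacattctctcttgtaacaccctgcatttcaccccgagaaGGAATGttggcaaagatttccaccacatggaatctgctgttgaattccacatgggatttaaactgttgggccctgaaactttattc
Aspn, chr13:49544193-49544442, plus strand: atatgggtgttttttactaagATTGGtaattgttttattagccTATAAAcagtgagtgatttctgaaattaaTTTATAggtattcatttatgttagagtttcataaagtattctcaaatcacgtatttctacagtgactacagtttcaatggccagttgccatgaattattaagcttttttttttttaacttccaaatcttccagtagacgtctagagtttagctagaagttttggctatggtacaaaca

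The Prelp window held a CCAAT box at -15 to -11, counted from the start site, and the Fmod window held none of the motifs. The Ogn window held TATAAA on both strands at -229 to -224 and -227 to -222, which overlap, and GGAATG at -86 to -81. The Aspn window held TATAAA at -207 to -202 and, on the other strand, at -178 to -173, and CCAAT on the other strand at -229 to -225. Base composition also differed, with 55.6% GC for Prelp, 51.2% for Fmod, 42.0% for Ogn and 30.0% for Aspn, where the median of 32851 promoters was 52.4%. RefSeq entries were found for 7 of the 9 members, with 8 windows in all since Podn has a pair of them. TATAAA occurred in 2 of these 8 windows and in 12.4% of all promoters, CCAAT in 2 and 33.8%, GGGCGG in 3 (Podn, Ecm2 and Bgn) and 32.7%, and GGAATG in 1 and 12.6%. The AP-1 site, the IRF pair and the SMAD palindrome occurred in 0 of the 8, and in 6.75%, 2.98% and 0.167% of all promoters. These matches describe letters in the window, and binding was not measured.

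Of the 9 SLRPs, 8 were upregulated at pHe6.6 and 0 at pHe7.4, while Aspn did not pass the test (edgeR's quasi-likelihood test, adjusted p under 0.05 by Benjamini-Hochberg over 15197 genes). Over all genes tested, 52.3% passed, 26.4% with higher expression at pHe6.6 and 25.9% with higher expression at pHe7.4. With an absolute log2 fold change over 0.58 required as well, 7 of the 9 were upregulated at pHe6.6 and 0 at pHe7.4, where the shares of all genes were 15.0% and 14.7%. The 3 libraries at pHe6.6 did not overlap with the 3 at pHe7.4 for 8 of the 9 members, as for 63.2% of all genes. The median log2 fold change, given throughout as pHe7.4 over pHe6.6, was -1.41 over the 9 SLRPs and 0.011 over all genes tested. These are bulk RNA measurements, in which fewer cells of a type and less RNA per cell cannot be told apart.

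**Figure D1:**
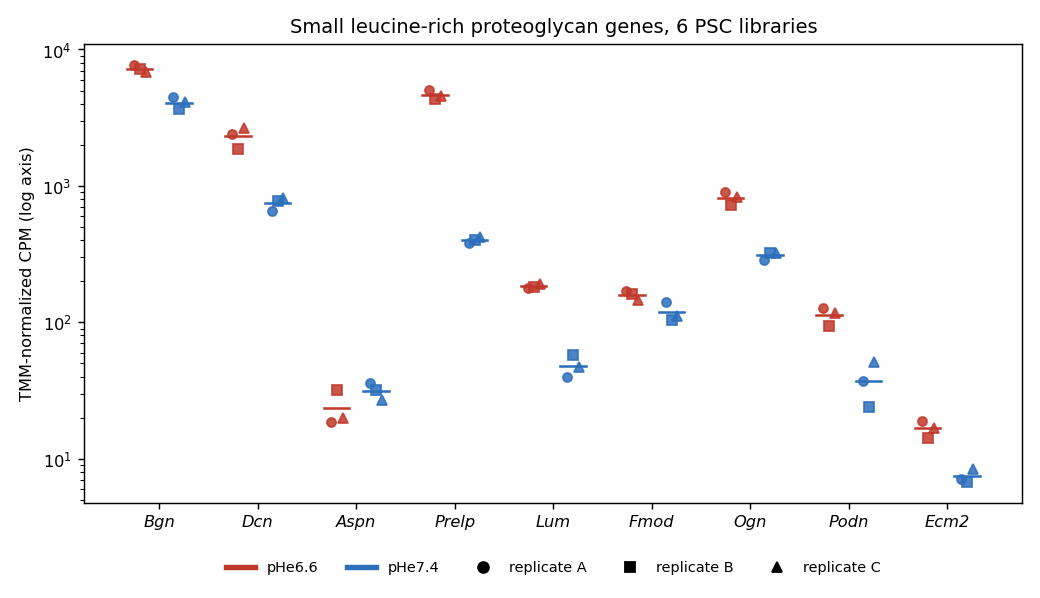
TMM-normalized CPM (log axis) of the 9 SLRP genes in each library, with pHe6.6 in red, pHe7.4 in blue, the replicates as circles (A), squares (B) and triangles (C), and the mean of each group as a line. The red symbols lie above the blue ones for every gene except Aspn, where pHe6.6 replicate B at 31.9 CPM falls among the pHe7.4 libraries.

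Levels are given as CPM, read counts scaled by TMM to a common library size. The libraries held 28904761 to 38331877 counts, and 1 count corresponds to 0.0261 to 0.0346 CPM before TMM scaling. Of 10 markers of PSCs and other fibroblasts, 9 passed the filter, 5 of them upregulated at pHe6.6 and 1 at pHe7.4. The 5 were Pdgfra (-1.06), Thy1 (-1.08), Pdgfrb (-0.65), Des (-0.68) and S100a6 (-0.55), and the 1 was Col1a1 (0.97), while Acta2 (0.55, adjusted p = 0.067), Col1a2 (0.13, adjusted p = 0.36) and Vim (0.07, adjusted p = 0.54) did not pass the test. The markers summed to 21186 to 23849 CPM at pHe6.6, and 25441 to 32145 CPM at pHe7.4. Without Col1a1, left out after its values were seen, the sums overlapped, at 14411 to 15042 and 13381 to 15255 CPM. The stellate cell marker Gfap reached at most 0.378 CPM in any library and was not tested. Of 16 mesothelial markers, 10 were upregulated at pHe7.4 and 1, C3, at pHe6.6. Their sum was 6386 to 7968 CPM at pHe6.6, and 3416 to 4255 CPM at pHe7.4, and without C3, left out after its values were seen, 203 to 707 CPM at pHe6.6, and 1753 to 1803 CPM at pHe7.4. Of 13 macrophage markers, 5 were upregulated at pHe6.6 and 1 at pHe7.4, with sums of 601 to 1167 CPM and 548 to 836 CPM. Of 7 endothelial markers, 6 were upregulated at pHe7.4 and 1 at pHe6.6 (18.1 to 31.3 and 46.2 to 57.0 CPM summed), and of 5 duct markers, 3 were upregulated at pHe7.4 and 0 at pHe6.6 (57.7 to 149 and 429 to 522 CPM). The duct markers upregulated at pHe7.4 were Spp1, the most abundant of them there at 275 CPM, Krt19 and Sox9. Epcam (1.48, adjusted p = 0.066) and Cftr (0.46, adjusted p = 0.46) did not pass the test. Krt19 is on both the mesothelial and the duct list. Apart from C3, the largest mesothelial means at pHe7.4 were those of the keratins Krt18 (414 CPM) and Krt8 (374 CPM). Acinar markers summed to 4.26 to 56.3 CPM and Schwann cell markers to 0.430 to 1.57 CPM. The 4 B cell markers had 296 counts in pHe6.6 replicate C and at most 7 in each other library. The part of these cell types in the SLRP differences was not tested. Without pHe6.6 replicate C, 8 SLRPs were again upregulated at pHe6.6, as were 3334 of the 15090 genes tested then.

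Bgn encodes biglycan, a class I SLRP with a pair of chondroitin or dermatan sulfate chains that also signals through Toll-like receptors when it is released from the matrix. In the acidic cultures, replicates A, B and C held 7717, 7147 and 6791 CPM, and in the pHe7.4 cultures, in the same order as for all genes given here, 4477, 3642 and 4092 CPM. All pHe6.6 libraries lay above all pHe7.4 libraries. The mean was 7218 ± 467 CPM under acidic conditions compared with 4071 ± 418 CPM (mean ± SD, n = 3), which gives a log2 fold change of -0.83 ± 0.11 (SE) with an adjusted p of 7.7e-04. Bgn ranked 5th of all genes tested at pHe6.6 and 10th at pHe7.4, by CPM values that are not scaled to length. When the test asked for a difference beyond 0.58 on the log2 scale (glmTreat), the adjusted p of Bgn was 0.052.

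Dcn encodes decorin, the closest relative of biglycan, with a single glycosaminoglycan chain, which binds collagen fibrils and TGF-β. It was at 2409, 1859 and 2646 CPM at pHe6.6, compared with 658, 779 and 816 CPM at pHe7.4. The groups were far apart compared with their spread, and pHe6.6 replicate B was the lowest of its group. The mean of 2305 ± 403 CPM at pHe6.6 was 3.07-fold that at pHe7.4, 751 ± 82.7 CPM (mean ± SD, n = 3), with a log2 fold change of -1.62 ± 0.15 (SE, adjusted p = 1.3e-04).

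Aspn encodes asporin, which belongs to class I by sequence but carries an aspartate-rich stretch and no glycosaminoglycan, and which is known as an inhibitor of TGF-β in cartilage. It was at 18.4, 31.9 and 19.7 CPM at pHe6.6, compared with 36.0, 31.8 and 26.7 CPM at pHe7.4. The groups overlapped through pHe6.6 replicate B, which reached the level of the pHe7.4 libraries. The log2 fold change was 0.43 ± 0.23 (SE, adjusted p = 0.15), and the coefficient of variation at pHe6.6, 31.8%, was the largest of the 9 SLRPs in that group. Without pHe6.6 replicate B, Aspn was upregulated at pHe7.4, with a log2 fold change of 0.72 and an adjusted p of 0.0037. With the libraries weighted by limma-voom the value was 0.52 (adjusted p = 0.038), while over the 15 alternatives it ranged from 0.28 to 0.72 and the adjusted p from 0.0037 to 1.

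Prelp encodes prolargin, a class II SLRP with a basic, heparin-binding end that connects collagen to basement membranes. It showed the largest difference of the 9. Its level was 5049, 4321 and 4568 CPM at pHe6.6, compared with 381, 399 and 420.5 CPM at pHe7.4. Both groups were tight, with coefficients of variation of 7.97% and 4.90%. The mean of 4646 ± 370.4 CPM at pHe6.6 was 11.6-fold that at pHe7.4, 400.2 ± 19.6 CPM (mean ± SD, n = 3), with a log2 fold change of -3.54 ± 0.10 (SE, adjusted p = 2.5e-06). Among all genes tested it ranked 7th by p-value and 35th by the most negative log2 fold change, and its place by CPM, not scaled to length, went from 13th at pHe6.6 to 298th at pHe7.4. The antisense gene Gm15851 shares 350 exonic bases with Prelp, but it had at most 7 counts in any library, against at least 12545 for Prelp.

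Lum encodes lumican, a keratan sulfate proteoglycan that regulates collagen fibrils in cornea, skin and tendon. It was at 179, 181 and 192 CPM at pHe6.6, compared with 39.9, 57.5 and 47.0 CPM at pHe7.4. The pHe6.6 libraries were nearly equal, with a coefficient of variation of 3.67%, the smallest of the 9 members in that group. The log2 fold change was -1.94 ± 0.13 (SE, adjusted p = 4.2e-05), a 3.83-fold difference.

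Fmod encodes fibromodulin, which binds collagen I at the same region as lumican. It was at 171, 162 and 146 CPM at pHe6.6, compared with 139.7, 104 and 112 CPM at pHe7.4. The lowest pHe6.6 library, replicate C, lay just above the highest pHe7.4 library, replicate A. The log2 fold change was -0.43 ± 0.12 (SE, adjusted p = 0.018), the smallest among the 8 called SLRPs. This call was lost without pHe7.4 replicate B (-0.34, adjusted p = 0.055), without pHe7.4 replicate C (-0.39, adjusted p = 0.068) and when only the library size was used for scaling (-0.26, adjusted p = 0.063).

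Ogn encodes osteoglycin, or mimecan, a class III SLRP found in bone, cornea and vessel walls. It was at 901, 728 and 830.0 CPM at pHe6.6, compared with 287, 319.9 and 321 CPM at pHe7.4. The lowest pHe6.6 library held more than any pHe7.4 library by a wide margin compared with the spread of either group. The log2 fold change was -1.41 ± 0.10 (SE, adjusted p = 4.2e-05). The gene Cenpp spans Ogn, Aspn and Ecm2 on the other strand, sharing 7 exonic bases with Aspn and 0 with Ogn and Ecm2. Cenpp was upregulated at pHe7.4 (log2 fold change 1.15, adjusted p = 0.0020) and had 49 to 161 counts, where Aspn had 544 to 1429, Ecm2 213 to 558 and Ogn at least 10066. The library kit was directional, but the strand setting of the counting is not given in the sources used here, so reads of Cenpp and these genes may not be fully separated.

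Podn encodes podocan, the founding class V SLRP, known in vessel walls as a restraint on smooth muscle growth. It was at 127, 93.6 and 117 CPM at pHe6.6, compared with 37.1, 24.0 and 50.9 CPM at pHe7.4. The groups did not overlap, but the pHe7.4 libraries were the most uneven of any member, with a coefficient of variation of 36.0%. The log2 fold change was -1.59 ± 0.28 (SE, adjusted p = 0.0046). Podn overlaps the span of Scp2 on the same strand without shared exonic bases, and Scp2 did not pass the test (0.04, adjusted p = 0.78).

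Ecm2 encodes an extracellular matrix protein with leucine-rich repeats related to those of decorin. It was the rarest member per length, at 18.9, 14.2 and 16.8 CPM at pHe6.6, compared with 7.15, 6.77 and 8.37 CPM at pHe7.4. Every pHe6.6 library lay above every pHe7.4 library. The log2 fold change was -1.16 ± 0.14 (SE, adjusted p = 3.9e-04), a 2.24-fold difference. Ecm2, Aspn and Ogn thus had log2 fold changes of -1.16, 0.43 and -1.41 along a single cluster of genes. The value of Aspn did not pass the test (adjusted p = 0.15), nor did that of Omd, which lies between Aspn and Ogn (adjusted p = 0.57).

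**Figure D2:**
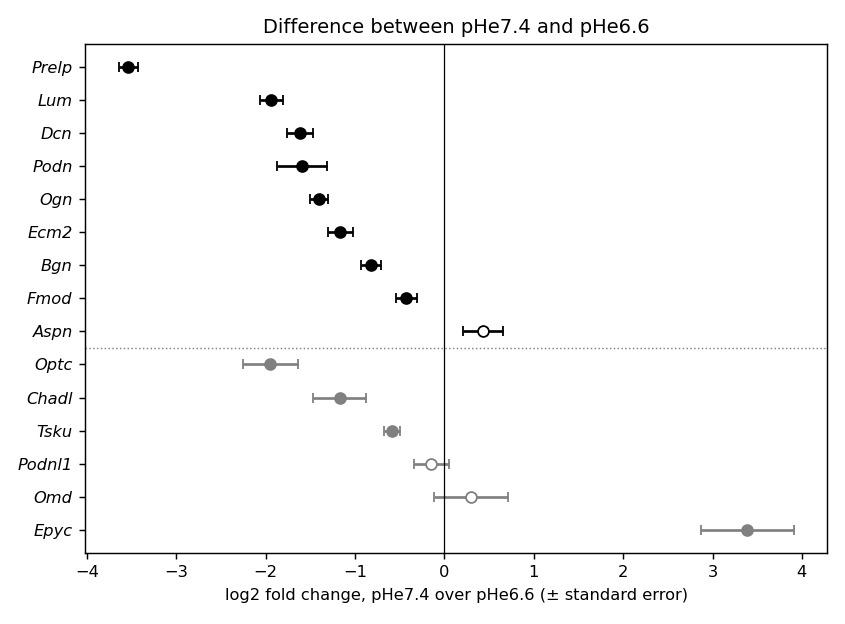
Log2 fold change, pHe7.4 over pHe6.6, with its standard error for the 9 SLRPs (black) and 6 further family genes that passed the filter (gray), filled where the adjusted p was under 0.05. Values to the left are higher at pHe6.6, from Prelp at -3.54 to Fmod at -0.43 among the 8 called members, and Epyc at 3.39 is the called gene on the right.

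Of 9 further family genes in the table, 6 passed the filter, 3 of them upregulated at pHe6.6 and 1 at pHe7.4, all at low levels apart from Tsku. The shares of all genes tested were 26.4% and 25.9%. Epyc, which encodes the cartilage SLRP epiphycan and follows Lum and Kera on chromosome 10, had 3, 4 and 10 counts at pHe6.6 and 43, 56 and 92 at pHe7.4. It was upregulated at pHe7.4 with a log2 fold change of 3.39 ± 0.52 (SE, adjusted p = 0.0013), opposite in sign to Dcn and Lum in the same cluster. Optc, which encodes the eye protein opticin next to Prelp, had 82, 64 and 50 counts at pHe6.6 and 21, 19 and 15 at pHe7.4, with a log2 fold change of -1.95 (adjusted p = 0.0015). Tsku, which encodes the secreted signalling modulator tsukushi, averaged 94.4 ± 11.0 CPM in acidic and 62.9 ± 3.60 CPM in pHe7.4 medium (mean ± SD, n = 3), with a log2 fold change of -0.59 (adjusted p = 0.0015). Chadl, a chondroadherin-like gene, had -1.17 (adjusted p = 0.013). Omd, which encodes osteomodulin (0.30, adjusted p = 0.57), and Podnl1, the paralog of Podn (-0.15, adjusted p = 0.55), did not pass the test. Kera, Chad and Nyx had at most 9 counts in any library and were not tested.

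Scaled to the length of their exons, the SLRPs ordered differently at each pHe. At pHe6.6 Prelp was at 1285 ± 102 CPM per kb and Bgn at 1184 ± 76.5 (SD, n = 3), with overlapping libraries, followed by Dcn at 395 ± 69.1 and Ogn at 319.5 ± 33.8, which also overlapped. Lum (75.2 ± 2.75), Fmod (48.3 ± 3.76), Podn (26.4 ± 4.05), Aspn (9.92 ± 3.16) and Ecm2 (2.93 ± 0.41) came next, each below all libraries of the one before. At pHe7.4 Bgn led alone at 667 ± 68.5 CPM per kb, and Dcn (129 ± 14.2), Ogn (120.5 ± 7.57) and Prelp (111 ± 5.43) followed with neighbours overlapping. Fmod (35.9 ± 5.67) then stood above Lum (19.7 ± 3.63), the reverse of their order at pHe6.6. Aspn (13.4 ± 1.97) and Podn (8.75 ± 3.15) overlapped, and Ecm2 (1.31 ± 0.15) was again the lowest.

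The exon length assigned to Bgn bears on its place. With the exons of all its transcripts merged, Bgn measures 6099 bases, and its longest transcript, an entry of 1 exon, 2666 bases. Neither length is that of a single spliced transcript. With the longest transcript Bgn was at 2708 CPM per kb at pHe6.6, above all libraries of Prelp, and at 1527 at pHe7.4. Of the summed level of the 9 SLRPs at this length, Bgn then held 54.5% at pHe6.6 and 76.2% at pHe7.4, Prelp 25.8% and 5.55%, Dcn 9.87% and 8.05%, and the other 6 members together 9.84% and 10.2%.

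The 9 SLRPs together took 1.37% to 1.54% of all counts at pHe6.6 and 0.584% to 0.628% at pHe7.4. Their summed CPM was 16591, 14538.5 and 15326 at pHe6.6 and 6063, 5364 and 5894 at pHe7.4, a 2.68-fold difference of the means. The make-up of the sum also differed. By CPM per kb of merged exons, Prelp supplied 38.9%, 38.2% and 38.1% of the sum at pHe6.6 and 9.19%, 10.6% and 10.3% at pHe7.4. Bgn supplied 35.2%, 37.4% and 33.6% at pHe6.6 and 64.0%, 57.4% and 59.4% at pHe7.4. The share of Dcn overlapped between the groups, at 11.8% ± 1.77 and 11.7% ± 1.62 (SD, n = 3). The SLRP transcripts at pHe6.6 came mainly from Prelp and Bgn, whose order depended on the length used, and those at pHe7.4 mainly from Bgn.

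**Figure D3:**
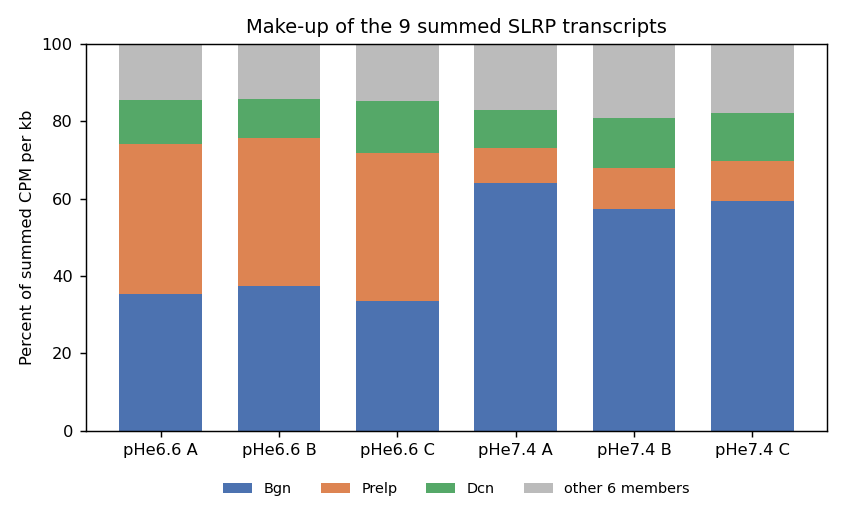
Percent of the summed CPM per kb of merged exons of the 9 SLRPs held by Bgn, Prelp, Dcn and the other 6 members in each of the 6 libraries. Prelp takes 38.1% to 38.9% in the pHe6.6 libraries and 9.19% to 10.6% in the pHe7.4 libraries, and the other 6 members 14.2% to 14.6% and 17.0% to 19.2%.

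Ratios between genes of a cluster and between close paralogs were compared within each library, which needs no scaling between libraries. Over the 8 pairs the smallest p that 3 libraries against 3 can give is 0.1 (two-sided exact permutation test), so no pair could pass a threshold of 0.05, and 0.114 is the smallest value after Benjamini-Hochberg adjustment over the 8. The groups did not overlap for 7 pairs. The largest shift was in Prelp/Fmod, whose log2 CPM ratio was 4.86 ± 0.12 at pHe6.6 and 1.77 ± 0.28 at pHe7.4 (SD, n = 3, exact permutation p = 0.1, adjusted p = 0.114). Dcn/Aspn shifted by -2.07, Ogn/Aspn by -1.87, Aspn/Ecm2 by 1.63, Bgn/Aspn by -1.30 and Dcn/Bgn by -0.78 on the log2 scale, with the same p-values. Ogn/Ecm2, the outer members of the chromosome 13 cluster, shifted by -0.24 only, from 5.63 ± 0.05 to 5.38 ± 0.16. Lum/Dcn was the pair whose libraries overlapped, at -3.63 ± 0.24 at pHe6.6 and -3.97 ± 0.19 at pHe7.4 (SD, n = 3, exact permutation p = 0.2). Leaving out any single library changed the sign of no pair.

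By the distance between centred log2 CPM profiles over the 6 libraries, among 12505 genes whose mean log2 CPM was 1 or more, the genes most like Lum were Ager (0.25), Spon2 (0.26) and Gypc (0.27). Those most like Dcn were Tlr4 (0.20), Gm4951 (0.25) and Ebf4 (0.26), and those most like Bgn were Fsd1l (0.084), Ctsk (0.096) and Pgm1 (0.10). For Prelp, added after the values were seen, they were Gbp5 (0.25), Gm16201 (0.35) and H2-Q7 (0.39). The distance favours genes with a fold change of similar size, and the 6 libraries fall into 2 groups, so these are descriptions of likeness. Ranking by Pearson correlation gave none of the same genes for any of these 4 members (0 of 3 shared for each).

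Lists of genes that build, bind and cut SLRPs are read against all genes tested, of which 26.4% were upregulated at pHe6.6 and 25.9% at pHe7.4. Of 22 enzymes of chondroitin and dermatan sulfate synthesis, 20 passed the filter, 9 upregulated at pHe7.4, 7 upregulated at pHe6.6 and 4 that did not pass the test, with a median log2 fold change of -0.088. Dse, the epimerase that turns chondroitin into dermatan sulfate and the most abundant of them by CPM, averaged 396 ± 24.5 CPM in acidic and 183 ± 1.49 CPM in pHe7.4 medium (mean ± SD, n = 3), with a log2 fold change of -1.12 (adjusted p = 2.5e-05). Chst14, the sulfotransferase that modifies dermatan sulfate, had -1.01 (adjusted p = 2.7e-05). The chondroitin polymerase Chsy1 was upregulated at pHe7.4, from 51.5 ± 4.23 to 100.4 ± 9.18 CPM (SD, n = 3), with a log2 fold change of 0.96 (adjusted p = 1.4e-04). B3galt6, which makes part of the linker between core protein and chain, had 0.93 (adjusted p = 3.3e-04).

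Of 9 genes of keratan sulfate synthesis and breakdown, the chains of lumican and fibromodulin, 3 were upregulated at each pHe and 3 did not pass the test, with a median of 0.11. The 3 at pHe7.4 belong to synthesis, namely the sulfotransferases Chst2 (1.70, adjusted p = 2.3e-05) and Chst5 (3.31, adjusted p = 0.0073) and the glycosyltransferase B3gnt7 (2.35, adjusted p = 0.0016). Chst5 and B3gnt7 reached at most 3.12 CPM in any library. Those at pHe6.6 included Galns (-0.76, adjusted p = 2.3e-04), a lysosomal enzyme that degrades keratan sulfate among other chains, and the synthetic enzyme B3gnt2 (-1.51, adjusted p = 0.032). B3gnt2 was low as well, at most 1.80 CPM in any library. Chst5 and B3gnt2 were named after their values were seen.

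**Figure D4:**
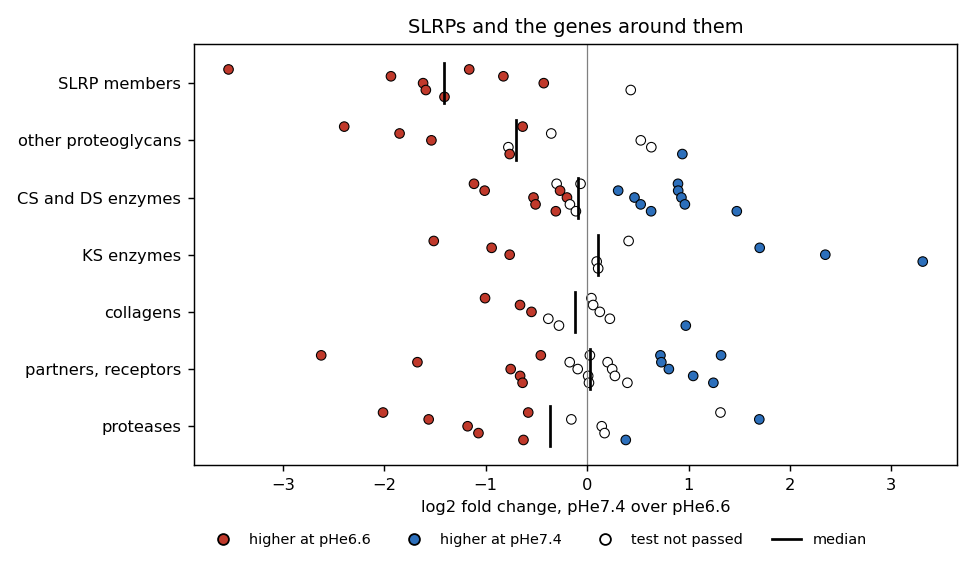
Log2 fold change, pHe7.4 over pHe6.6, of the tested genes of each list (CS, chondroitin sulfate; DS, dermatan sulfate; KS, keratan sulfate), in red where upregulated at pHe6.6, in blue where upregulated at pHe7.4 and open where the test was not passed, with the median as a line. The median of the SLRPs is -1.41 and those of the enzymes and of the binding partners lie between -0.09 and 0.11, with calls on both sides.

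Other proteoglycans of the matrix were upregulated at pHe6.6 in 5 of 10 tested, with 1 upregulated at pHe7.4, 4 that did not pass the test and a median of -0.70. Spock2, a secreted testican, had -2.40 (adjusted p = 6.4e-05), the basement membrane collagen Col18a1 -1.54 (adjusted p = 7.9e-05), Esm1 -1.85 (adjusted p = 0.0025) and agrin, Agrn, -0.76 (adjusted p = 4.7e-04). Perlecan, Hspg2, was the most abundant by CPM, with 2147 ± 316 CPM in acidic and 1381 ± 270.3 CPM in pHe7.4 medium (mean ± SD, n = 3) and a log2 fold change of -0.64 (adjusted p = 0.016). The exception was versican, Vcan, the large hyaluronan-binding proteoglycan, with 0.94 (adjusted p = 0.0061). Without pHe6.6 replicate C, 2 were upregulated at pHe7.4.

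Among 10 collagens that SLRPs bind, 3 were upregulated at pHe6.6, 1 at pHe7.4 and 6 did not pass the test, with a median of -0.12. Col1a1, a chain of collagen I, was at 6702, 8807 and 6775 CPM at pHe6.6, compared with 16890, 12060 and 14800 CPM at pHe7.4, with a log2 fold change of 0.97 (adjusted p = 0.0023). Col6a1 (-1.01, adjusted p = 3.5e-04) and Col6a2 (-0.66, adjusted p = 0.0026), chains of the microfibrillar collagen VI that binds biglycan and decorin, and Col14a1 (-0.55, adjusted p = 0.0039) were upregulated at pHe6.6. Another chain of collagen VI, Col6a3, did not pass the test (-0.38, adjusted p = 0.27), nor did Col1a2, the other chain of collagen I (0.13, adjusted p = 0.36). Col3a1, the most abundant by CPM, had 0.06 (adjusted p = 0.79). Without pHe7.4 replicate B, 2 collagens were upregulated at pHe7.4.

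Of 21 partners and receptors of SLRPs, 6 were upregulated at each pHe and 9 did not pass the test, with a median of 0.027. These counts are close to the shares of all genes (26.4% and 25.9%). Tlr4, a receptor for soluble biglycan and decorin, was at 125, 93.7 and 118 CPM at pHe6.6, compared with 31.7, 34.9 and 39.2 CPM at pHe7.4, with a log2 fold change of -1.67 (adjusted p = 6.9e-05). Tlr2, the other Toll-like receptor that biglycan uses, had -0.66 (adjusted p = 6.6e-04). Bmp2 (-2.62, adjusted p = 1.0e-04) and the decorin receptor Egfr (-0.75, adjusted p = 4.2e-04) were upregulated at pHe6.6 too. The endocytic receptor Lrp1, which takes up decorin, was the most abundant by CPM and had -0.64 (adjusted p = 0.016). The 6 upregulated at pHe7.4, named after their values were seen, were Met (1.25, adjusted p = 0.0016), another receptor that decorin binds, Cd14 (1.32, adjusted p = 0.0046), a co-receptor of Tlr2 and Tlr4 that is also among the macrophage markers, Tgfbr1 (0.72, adjusted p = 0.0036), Tgfb1 (0.81, adjusted p = 0.043), elastin, Eln (1.05, adjusted p = 0.011), and Tnf (0.73, adjusted p = 0.031). Tnf was low, with 26 to 53 counts per library, as was Bmp2 at pHe7.4, with 27 to 38 counts.

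Of 14 proteases and cofactors that process SLRPs or their collagens, 12 were tested, 6 upregulated at pHe6.6, 2 at pHe7.4 and 4 that did not pass the test, with a median of -0.37. The aggrecanase Adamts5, the most abundant by CPM, was at 1898, 1633 and 1762 CPM at pHe6.6, compared with 577, 572 and 643 CPM at pHe7.4, with a log2 fold change of -1.56 (adjusted p = 2.3e-05). The serine protease Htra1 had -2.01 (adjusted p = 2.6e-05), the stromelysin Mmp3 -1.07 (adjusted p = 9.8e-04) and Adamts1 -0.63 (adjusted p = 0.0012). The genes at pHe7.4 were Tll1 (1.70, adjusted p = 0.021) and Adamts4 (0.38, adjusted p = 0.020), named after their values were seen. The number upregulated at pHe7.4 was 1 without pHe6.6 replicate B or C and 0 without pHe7.4 replicate A or C.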

How the data were processed

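RNA of 6 PSC cultures (3 per pHe) was poly(A)-selected and sequenced. Per the submitters' processing notes and the methods, the authors aligned the reads to mm10 with HISAT2 2.2.1 and counted them with featureCounts 2.0.1 into the deposited table of raw counts per Ensembl gene. The authors' comparison, with log2 fold changes from limma 3.50.1, was used only for gene names.

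The 15197 genes that reached 0.5 CPM in 2 libraries or more were tested with edgeR 4.0.16 in R 4.3.3 (TMM factors, robust quasi-likelihood test, no covariate, Benjamini-Hochberg adjustment over all genes tested, threshold 0.05). A standard error (SE) was obtained as the size of the log2 fold change over the square root of F. The script was tested on simulated data. CPM values use TMM-scaled library sizes. Depth was 28904761 to 38331877 counts, and precision at 0.0261 to 0.0346 CPM per count, before TMM scaling, covers counting error only. Lengths and positions are from GENCODE vM21 (GRCm38) and promoters from RefSeq. Motifs were chosen from general knowledge of fibroblast and core promoter elements. The labels call the replicates biological and do not say whether equal letters mark a shared animal. In the paper, N counts the mice of an experimental series and is 3 for this RNA-Seq. Whether each mouse gave both cultures is not stated. Across genes, deviations of libraries with equal letters correlated at -0.063, 0.000 and 0.228, and those with unequal letters at -0.185 to 0.174.

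The members and gene lists were chosen with earlier results of these data known. Named genes are all members, every further family gene with a count, in each list the most abundant gene and the 4 lowest adjusted p, and the 3 nearest to Lum, Dcn and Bgn. A gene that this rule names is withheld and not reported here. Alternatives were other scaling factors (DESeq2 1.42.0, upper quartile, library size only), filters and tests (DESeq2, limma 3.58.1 voom with sample weights, glmTreat), a replicate block, leaving out each library, other lengths and another measure of likeness. Plots were drawn with matplotlib 3.10.9.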

Additional observations from a re-analysis of the deposited data

How the results depend on the processing

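Of 135 log2 fold changes of the members under 15 alternatives of the fit, 128 kept their direction and their side of the threshold, and 0 reversed. The others were Fmod with library size only (-0.26, adjusted p = 0.063), glmTreat (-0.43, adjusted p = 1) and without pHe7.4 replicate B or C, Bgn with glmTreat (-0.83, adjusted p = 0.052), and Aspn with limma-voom weights (0.52) and without pHe6.6 replicate B. The cause was not tested. Leaving out each library gave -0.56 to -0.34 for Fmod, 0.28 to 0.72 for Aspn, 7 to 8 members upregulated at pHe6.6 and 0 to 1 at pHe7.4 (1 also with limma-voom weights). Over all genes, leaving out each library gave 3334 to 3866 upregulated at pHe6.6 and 2939 to 3898 at pHe7.4. With limma-voom weights they were 4526 and 4590. Library size alone moved the median of all genes to 0.184, and the members' median, -1.23, shifted with it. The replicate letters were not shown to pair the cultures, and with the replicate block 8 members were again upregulated at pHe6.6, Prelp at -3.54 (adjusted p = 1.6e-04), while the calls over all genes went from 3939 to 3602 at pHe7.4 and from 4016 to 3806 at pHe6.6.

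Of 240 counts of genes called in the lists, 214 stayed within 1.5 times. With glmTreat, which asks for more than a nonzero difference, calls at pHe6.6 were 1 of the further SLRPs, 3 of the other proteoglycans, 2 of the chondroitin and dermatan sulfate enzymes, 1 collagen, 2 partners and 3 proteases, those at pHe7.4 were 0, 3, 2 and 0 for proteoglycans, chondroitin enzymes, partners and proteases, and over all genes 1067 upregulated at pHe7.4 and 1266 at pHe6.6 were called. With library size only, 3 chondroitin and dermatan sulfate enzymes were upregulated at pHe6.6 and 3 collagens and 4 proteases at pHe7.4. With no filter beyond 1 count, 3 partners and 1 protease were upregulated at pHe7.4, and with limma-voom weights 2 proteoglycans, 2 collagens and 4 proteases. Leaving out each library gave 1 to 2 proteoglycans, 1 to 2 collagens and 0 to 3 proteases upregulated at pHe7.4.

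With the longest transcript as length, Dcn was at 491 and 160.0 CPM per kb at pHe6.6 and pHe7.4, Bgn at 2708 and 1527, and Podn at 31.0 at pHe6.6. In CPM without length scaling, Bgn held 46.7% and 70.4% of the summed members at pHe6.6 and pHe7.4, Prelp 30.0% and 6.95%, Dcn 14.9% at pHe6.6 and the other 6 members 8.50% and 9.59%. Leaving out a library reversed 0 of 48 pair values, and with 3 libraries against 3 no pair could pass. By Pearson correlation, 0 of the 3 genes nearest to Lum, Dcn, Bgn or Prelp were shared.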
